A study of Mus musculus with 6 samples.

Results

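Small nuclear RNA (snRNA) genes were examined in RNA from the extracellular vesicles (EVs) of WEHI-231 cells. Members were the genes of biotype snRNA in GENCODE M21 whose counts summed to at least 10 over the 6 samples. This rule kept 79 of 1385 snRNA genes and of 47729 genes in all. The members were 8 named (Rnu) genes and 71 predicted (Gm) genes. Members were thus chosen by their summed count, so the levels below are a description, and anti-CD24 samples, which held more counts, weighed more in the sum. The members held 25047 of the 25379 counts on snRNA genes, which is 98.7%. Another 130 snRNA genes had a sum of 1 to 9, and 1176 were listed at 0.

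WEHI-231 is a mouse splenic B cell lymphoma line, so all samples come from 1 transformed line. Cells were stimulated for 1 h with 10 µg/mL anti-CD24 antibody (clone M1/69) or 10 µg/mL isotype control, and both groups also received 5 µg/mL secondary antibody. EVs were captured with the Vn96 peptide, and the RNA was sequenced on an IonTorrent PGM without rRNA depletion. Each condition had 3 biological replicates.

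The snRNAs are short nuclear RNAs that form the core of the spliceosome, the machine that removes introns from pre-mRNA. U1 pairs with the 5′ splice site and U2 with the branch point, while U4, U6 and U5 join as a tri-snRNP. U6 lies at the catalytic centre, and U5 holds the exons in place. U11 and U12 take the places of U1 and U2 in the minor spliceosome, which removes a rare class of introns. All of these but U6 are made by RNA polymerase II and bind a ring of Sm proteins at a short uridine-rich site. U6 is made by RNA polymerase III and binds Lsm proteins at its 3′ end instead. Mammalian genomes hold many U1, U2 and U6 copies, and many of these copies are pseudogenes.

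The members were sorted into families by sequence against the named genes. U1 took 25 members, U2 took 13, U6 took 31, U5 took 6, and U11 and U12 took 1 each. The remaining 2, Gm24265 and Gm24407, matched no named gene. They are called U4-type here because their 5′ end is that of U4, for which the annotation holds no named gene to compare with. The U6 members were all predicted genes. Among the 11 named snRNA genes in the files, 3 were not members. Rnu6 had a sum of 2, and Rnu7, which processes histone mRNA 3′ ends, and Rnu6-ps2 were listed at 0.

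Sequences are shown for U1, U2, the U4-type gene, U11 and U12, at a copy that the levels below rest on, as GENCODE M21 gives the transcript on GRCm38 (DNA letters). The U1 variants U1a and U1b are shown together. Capitals mark short motifs known from textbook snRNA biology. In U1 they mark the stretch that pairs with the 5′ splice site (ACTTACC) and the Sm site (ATTTNTG or ATTTTTTG).
Rnu1a1: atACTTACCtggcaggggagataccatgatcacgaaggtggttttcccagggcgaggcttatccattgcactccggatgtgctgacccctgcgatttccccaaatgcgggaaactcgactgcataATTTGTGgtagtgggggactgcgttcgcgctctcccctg
Rnu1b1: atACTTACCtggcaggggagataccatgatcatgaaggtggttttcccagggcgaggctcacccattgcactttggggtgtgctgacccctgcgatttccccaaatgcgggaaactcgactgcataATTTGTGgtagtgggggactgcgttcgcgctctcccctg
In U2 the capitals mark the stretch that pairs with the branch point (GTAGTA) and the Sm site.
Rnu2-10: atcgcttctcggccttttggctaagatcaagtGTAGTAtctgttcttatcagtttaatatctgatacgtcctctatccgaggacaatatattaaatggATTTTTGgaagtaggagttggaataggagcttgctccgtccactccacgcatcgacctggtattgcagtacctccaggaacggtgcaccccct
In the U4-type gene they mark the Sm site.
Gm24265: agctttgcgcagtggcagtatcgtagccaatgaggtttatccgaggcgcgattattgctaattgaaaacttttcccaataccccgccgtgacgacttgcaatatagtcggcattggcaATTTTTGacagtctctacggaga
In the minor spliceosome, they mark the Sm sites of U11 and U12 and the branch point stretch of U12 (AAGGAA).
Rnu11: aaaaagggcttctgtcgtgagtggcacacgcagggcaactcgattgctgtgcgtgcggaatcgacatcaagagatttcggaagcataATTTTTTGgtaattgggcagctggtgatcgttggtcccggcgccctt
Rnu12: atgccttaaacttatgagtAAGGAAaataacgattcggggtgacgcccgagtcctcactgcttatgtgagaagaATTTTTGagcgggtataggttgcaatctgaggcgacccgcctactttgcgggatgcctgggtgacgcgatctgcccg

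Families were assigned by sequence similarity, so the motifs of a family describe its copies and are no independent check of the assignment. ACTTACC stood in 25 of 25 U1 members, against 4.7% of the 1383 snRNA genes with a sequence. GTAGTA stood in 13 of 13 U2 members, against 3.69% of these genes. The Sm site was found in 23 of 25 U1 members, in 13 of 13 U2 members and in 6 of 6 U5 members. It was also found in both U4-type genes, Rnu11 and Rnu12, and in 0 of 31 U6 members. Over all members it stood in 58.2%, and over all snRNA genes in 21.7%. These are matches of letters on the gene's own strand, and overlapping matches were not merged.

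The samples held 166129 to 794185 counts on genes. The limit that a count of 0 allows, taken as 3 counts, was 3.78 to 18.1 CPM (counts divided by the sample's counts on genes and scaled to 1e+06) depending on the sample. All isotype samples carried sequencing barcode 1 and all anti-CD24 samples barcode 2, so barcode and condition cannot be told apart. In isotype replicate 1, 51.1% of reads were not aligned, against 11.4% to 18.5% in the others. The TMM scaling factor of anti-CD24 replicate 3 was 0.512, against 0.873 to 1.37 elsewhere. Of the B cell markers, 8 of 10 had a count, but at low levels. Ighm, the immunoglobulin mu chain, had 3, 0 and 3 counts in the isotype samples and 3, 11 and 3 in the anti-CD24 samples. Summed markers of other cell types had 0 counts in each isotype sample and 90, 4 and 0 in the anti-CD24 samples. The red cell globins Hbb-bs, with 38 counts, Hbb-bt, with 36, and Hba-a1, with 13, were counted only in anti-CD24 replicate 1. Their part in the snRNA values was not tested.

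Members took a small share of the counts in every sample. The share was 0.550% (95% Wilson interval 0.525 to 0.576), 0.479% (0.447 to 0.514) and 0.417% (0.403 to 0.432) in isotype replicates 1, 2 and 3. It was 1.05% (1.03 to 1.08), 1.47% (1.44 to 1.5) and 0.260% (0.249 to 0.272) in anti-CD24 replicates 1, 2 and 3. These intervals cover counting error only and are too narrow where reads were counted on more than one copy. The isotype samples lay close together, while the anti-CD24 samples held both the highest and the lowest shares. The mean was 0.482% ± 0.0662 (SD, n = 3) with isotype and 0.926% ± 0.613 (SD, n = 3) with anti-CD24, and the groups overlapped. Of the counts outside rRNA and ribozyme genes, members made up 6.38%, 5.09% and 4.62% with isotype and 9.93%, 9.65% and 2.54% with anti-CD24. Sequencing runs were shared by samples of the same replicate number. Within the 3 runs the anti-CD24 share minus the isotype share was 0.501, 0.989 and -0.157 percentage points. The anti-CD24 mean depended on single libraries. It was 1.26% without replicate 3, 0.656% without replicate 2 and 0.864% without replicate 1, the library with globin counts. The difference between the group means was 0.444 points with all samples, and 0.777, 0.174 and 0.382 points without anti-CD24 replicates 3, 2 and 1. A different number of vesicles with snRNA and a different amount of snRNA per vesicle cannot be told apart in these samples.

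**Figure D1:**
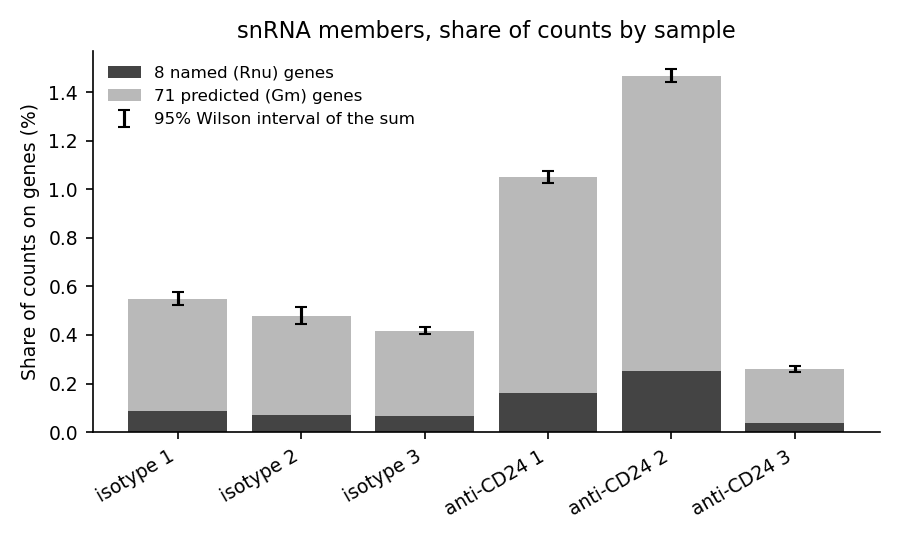
Share of all counts on genes taken by the snRNA members in each of the 6 samples, in percent, split into the 8 named (dark) and 71 predicted (light) genes, with the 95% Wilson interval of the sum. The isotype samples sit between 0.417% and 0.550%, and the anti-CD24 samples run from 0.260% to 1.47%.

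The named genes took a steady part of the member counts. They held 4028 of the 25047 counts. By sample, this was 15.6%, 14.4% and 16% with isotype and 15.2%, 17.0% and 15.0% with anti-CD24. The group means were 15.3% ± 0.80 and 15.8% ± 1.12 (SD, n = 3 each). The median summed count was 317.5 for named members (73 to 1442) and 52 for predicted members (10 to 1443). The highest predicted gene, Gm23971, thus had 1 count more than the highest named gene, Rnu2-10. All 8 named members and 43 of 71 predicted members were counted in every sample. Just inside the minimum lay Gm26324 with 14 counts and Gm23686 and Gm26378 with 10 each, and just outside lay Gm22220, Gm23511 and Gm24405 with 9 each.

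U1 and U2, the snRNAs that first define an intron, made up most of the counts. U1 members held 12905 counts (51.5% of member counts), and U2 members held 10114 (40.4%). U6 members held 1049 (4.19%), U5 members 574 (2.29%), Rnu11 205 (0.818%), the U4-type pair 127 (0.507%) and Rnu12 73 (0.291%). Across samples the U1 part ran from 43% to 58.9% and the U2 part from 32.5% to 47.8%. The U6 part was lowest in isotype replicate 3, at 1.19%. It was highest, at 13.5%, in anti-CD24 replicate 3, the sample with the lowest member share.

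**Figure D2:**
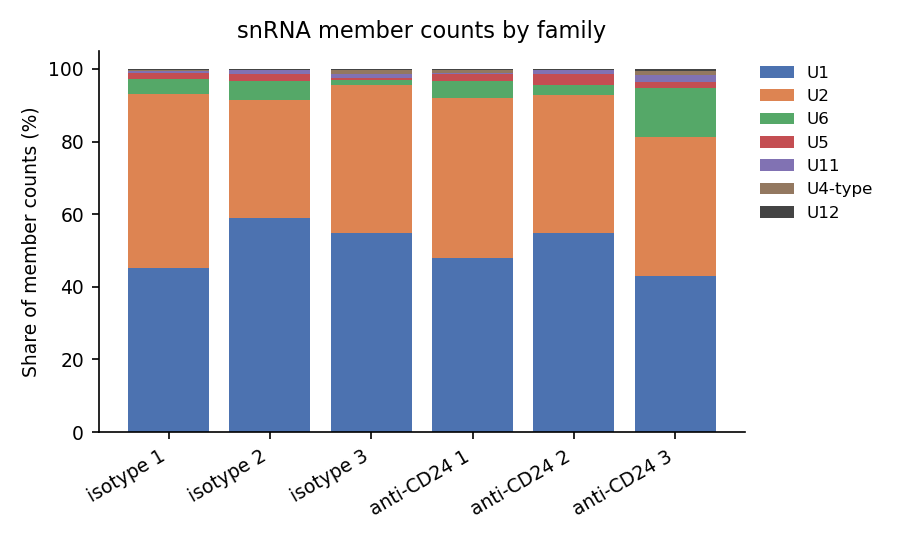
Member counts of each sample by sequence family, in percent of the sample's member counts. U1 and U2 fill most of every bar, and the U6 part is largest in anti-CD24 replicate 3, at 13.5%.

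Family sums count a read as often as it was assigned to copies. Levels were therefore also taken at the copy with the most counts in each family, divided by gene length. On this scale of CPM per kb, averaged over 6 samples, U2 stood at 2093 ± 1413 and U1 at 2062 ± 1215 (SD). U11 followed at 414 ± 299, U5 at 400.2 ± 465, U6 at 139 ± 88.8, U12 at 135 ± 65.6 and U4-type at 124.9 ± 106. Neighbours in this order did not differ beyond their spread, except that U1 lay above U11 in every sample. Relative to U1 of the same sample, the mean was 24.3% for U11 (4.14% to 56.4%), 16.2% for U5, 8.0% for U6, 7.32% for U12 and 7.20% for U4-type. U4, U5 and U6 act in 1 tri-snRNP, yet their values per kb were not equal, and all 3 were below U1 and U2 in all 6 samples. For U6 this value depends on the copy chosen, since copies of the Rnu6 sequence had sums from 2 to 52. The highest U6 copy had a mean of 7.99 CPM with isotype and 21.7 with anti-CD24. The U6 members summed to 179 and 424 CPM, which may count 1 read several times. The level of U6 RNA therefore cannot be read from 1 copy. Whether trimming, the length of reads or RNA modifications affected families unequally was not tested.

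**Figure D3:**
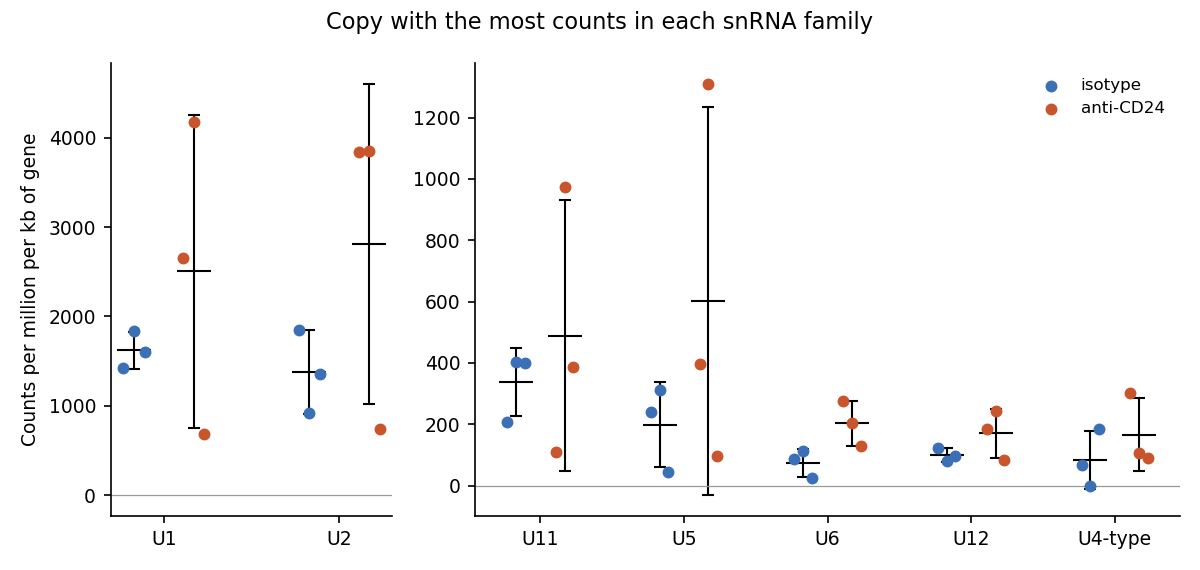
Level of the copy with the most counts in each family, in CPM per kb of gene, for 3 isotype (blue) and 3 anti-CD24 (orange) samples. Horizontal bars are group means and vertical bars are SD; the right panel has a smaller scale. Within every sample U1 and U2 lie above the other families, and only U6 has all anti-CD24 points above all isotype points. The U6 copy shown passed the minimum sum through the anti-CD24 samples.

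Among the U1 genes, the U1a variant exceeded U1b. Rnu1a1 (chromosome 11, 87422867 to 87423030, plus strand, in an intron of Tex14) had 75, 50 and 201 counts with isotype and 266, 505 and 88 with anti-CD24. Rnu1b1 (chromosome 3, 96359953 to 96360117, minus strand, intergenic) had 28, 9 and 19 counts and 84, 266 and 24. Rnu1a1 was thus the higher gene in all 6 samples. Rnu1b1 counts were 37.3%, 18% and 9.45% of Rnu1a1 counts with isotype and 31.6%, 52.7% and 27.3% with anti-CD24. The group means were 21.6% ± 14.3 and 37.2% ± 13.6 (SD, n = 3 each), and the groups overlapped. U1b is known as a variant of embryonic tissue. Over an alignment of 165 bases the 2 sequences printed above are 95.8% identical, with 6 mismatches and 1 gap. Rnu1b2, with the Rnu1b1 sequence, had 29, 9 and 20 counts with isotype and 87, 272 and 24 with anti-CD24. Rnu1b6, 98.2% identical to Rnu1b1, had only 6, 1 and 16 counts and 35, 22 and 4. The predicted gene Gm22614, 99.4% identical to Rnu1b1, had 35, 14 and 51 counts and 121, 299 and 30. It lay above Rnu1b1 and below Rnu1a1 in every sample. The U1b level, and its ratio to Rnu1a1, therefore depend on the copy chosen.

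The U2 gene Rnu2-10 (chromosome 11, 101658238 to 101658428, plus strand) had 114, 29 and 198 counts with isotype and 448, 542 and 111 with anti-CD24. It was counted above Rnu1a1 in isotype replicate 1 and in all anti-CD24 samples, and below it in isotype replicates 2 and 3. The predicted genes Gm23971, Gm24950 and Gm23849 have its sequence and nearly its counts, with sums of 1443, 1442 and 1426. Gm23472 and Gm23444 differ from it by G109C (the base of Rnu2-10 first, positions counted from 1 at the 5′ end). Their sums were 1212 and 1208. Gm25939, with T69C and C78T besides G109C, had 1085 counts.

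The U5 family had 6 members with 6 different sequences. Rnu5g (chromosome 9, 65201726 to 65201841, minus strand, in an intron of Parp16 on the opposite strand) had 9, 6 and 4 counts with isotype and 28, 112 and 9 with anti-CD24. Anti-CD24 replicate 2 held most of its counts. The predicted genes Gm25099 and Gm25313 followed, with sums of 152 and 131.

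The U4-type genes Gm24265 (chromosome 5, 115489459 to 115489599, plus strand) and Gm24407 differ by G88A and C99A (the base of Gm24265 first). Gm24265 had 3, 0 and 20 counts with isotype and 26, 11 and 10 with anti-CD24. Gm24407 had 1, 0 and 10 counts and 29, 5 and 12. The 0 of isotype replicate 2 lies under the limit of 18.1 CPM set by its depth, so absence cannot be told from a low level.

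The minor spliceosome snRNAs were counted in every sample. Rnu11 (chromosome 4, 132270080 to 132270213, minus strand, opposite an exon of Gm28872) had 9, 9 and 41 counts with isotype and 9, 96 and 41 with anti-CD24. Rnu12 (chromosome 15, 83149644 to 83149794, plus strand) had 6, 2 and 11 counts and 17, 27 and 10. Rnu12 was 5.26%, 6.90% and 5.56% of Rnu2-10 with isotype and 3.79%, 4.98% and 9.01% with anti-CD24, as counts. The mean was 5.91% ± 0.871 and 5.93% ± 2.73 (SD, n = 3 each). Rnu11 was 12%, 18% and 20.4% of Rnu1a1 with isotype and 3.38%, 19.0% and 46.6% with anti-CD24. The Rnu11 ratio was most uneven in the anti-CD24 samples, where replicate 1 was lowest and replicate 3 highest.

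Copies of 1 sequence cannot be told apart by reads that lie within it. The 79 members had 48 distinct sequences, and 10 of these were shared by 41 members. In 8 sets, 18 members had identical counts in every sample, so 69 members remained when each set was counted once. The Rnu1a1 sequence was carried by 7 genes on 2 chromosomes. Their sums ran from 1113 to 1185. Gm22634, Gm26444, Gm22317, Gm25679 and Gm23804 had 1185, 1178, 1173, 1166 and 1134 counts. With a single substitution from the Rnu1a1 sequence, the sums were lower. Gm24305 (A26G) had 664 counts and Gm22513 (T60C) had 627. This did not hold for U1b, where Gm22614, with T33C from Rnu1b1, had 550 counts and Rnu1b1 had 430. In the study's methods tmap was set to output all equally good places of a read, so 1 read may have been counted on several copies. The files' own line for multiple alignments stood at 0 in every sample. With 1 copy per sequence, members took 0.199% of counts with isotype and 0.411% with anti-CD24, on average.

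The U6 copies behaved otherwise. The Rnu6 sequence was carried by 43 genes on 18 chromosomes. Of these, 15 were members with sums of 19 to 52, and 28 had sums of 1 to 9. None was at 0, and 23 had a sum of exactly 2, with both counts in anti-CD24 replicate 1. Each of the 43 had at least 2 counts in that sample. By contrast, 826 of the 958 genes that matched U6 were at 0. Rnu6 itself (chromosome 17, 13432033 to 13432139, minus strand) was one of those with 2 counts, so the named gene does not show the level of U6 RNA here. The highest copies, Gm24019, Gm26243 and Gm25256, each had 3, 2 and 2 counts with isotype and 18, 16 and 11 with anti-CD24. Gm25256 is one of the 15 members with the Rnu6 sequence, and Gm24019 and Gm26243 share another.

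**Figure D4:**
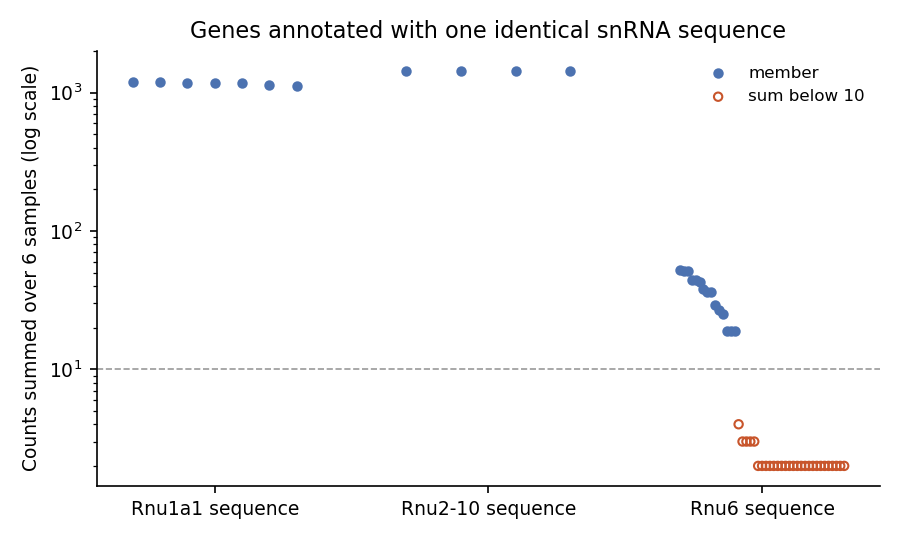
Counts summed over 6 samples (log axis) for every gene with exactly the sequence of Rnu1a1 (7 genes), Rnu2-10 (4 genes) or Rnu6 (43 genes), sorted by sum; filled points are members, open points have a sum below 10, and the dashed line marks 10. U1 and U2 copies lie level with each other, while U6 copies run from 52 down to 2.

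One short U1 gene is shown because it is truncated. Gm23240 (chromosome 1, 48462173 to 48462293, minus strand) has 121 bases and matches Rnu1a1 over 70 bases without a mismatch. RefSeq lists it as a pseudogene. It lacks the Sm site, and the capitals mark ACTTACC.
Gm23240: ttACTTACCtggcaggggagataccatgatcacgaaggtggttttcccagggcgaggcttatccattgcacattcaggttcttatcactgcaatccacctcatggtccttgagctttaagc
It had 3, 0 and 2 counts with isotype and 21, 7 and 3 with anti-CD24. Reads from its first part cannot be told from those of complete U1 genes.

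Many members lay in clusters. With gaps of up to 100 kb, 35 of 79 members fell in 9 clusters. Each cluster held a single family. On chromosome 3, between 96328425 and 96488893, there were 8 U1 members, among them Rnu1b1, Rnu1b2 and Rnu1b6. On chromosome 12, between 54696782 and 54738622, there were 7 U1 members with sums of 627 to 1185. On chromosome 11, between 101604850 and 101658428, there were 5 U2 members with Rnu2-10. On chromosome 1, between 72226240 and 72255198, there were 4 U2 members, and on chromosome 4, between 117189942 and 117210959, there were 3 U5 members. Of all members, 46 were intergenic, 16 lay in an intron on the same strand, 15 in an intron on the opposite strand and 2 opposite an exon. Rnu11 was one of those last 2, and no member overlapped an exon of another gene on its own strand.

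The comparison of anti-CD24 with isotype asked whether stimulation changes the RNA carried by EVs. No snRNA member passed the test. Most were nominally higher with anti-CD24, with a median log2 fold change of 1.31 (-0.43 to 2.44) over the 79 members, against -0.29 over the 1501 genes tested. The log2 fold change was above 0 in 78 of 79 members, where 44.7% of all genes tested were above 0. In DESeq2 this was 67 of 79 members (84.8%), with a median of 0.80 against -0.97 for all genes. Members that share a sequence share reads, so these counts are not of independent genes. Members also needed a summed count of at least 10, in which the anti-CD24 samples weighed more, while all genes tested needed no such sum. The direction of the members is therefore in part fixed by the rule and is given as a description. By edgeR's quasi-likelihood test with Benjamini-Hochberg adjustment, 0 of 79 members were called at an adjusted p under 0.05, beside 1 of all genes tested (0.0666%). DESeq2 also called 0. At an unadjusted p under 0.05, edgeR gave 2 members, both higher with anti-CD24, where 7.93% of all genes were in either direction and 4.2% higher. DESeq2 gave 0 members. The lowest adjusted p of a member was 0.546.

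**Figure D5:**
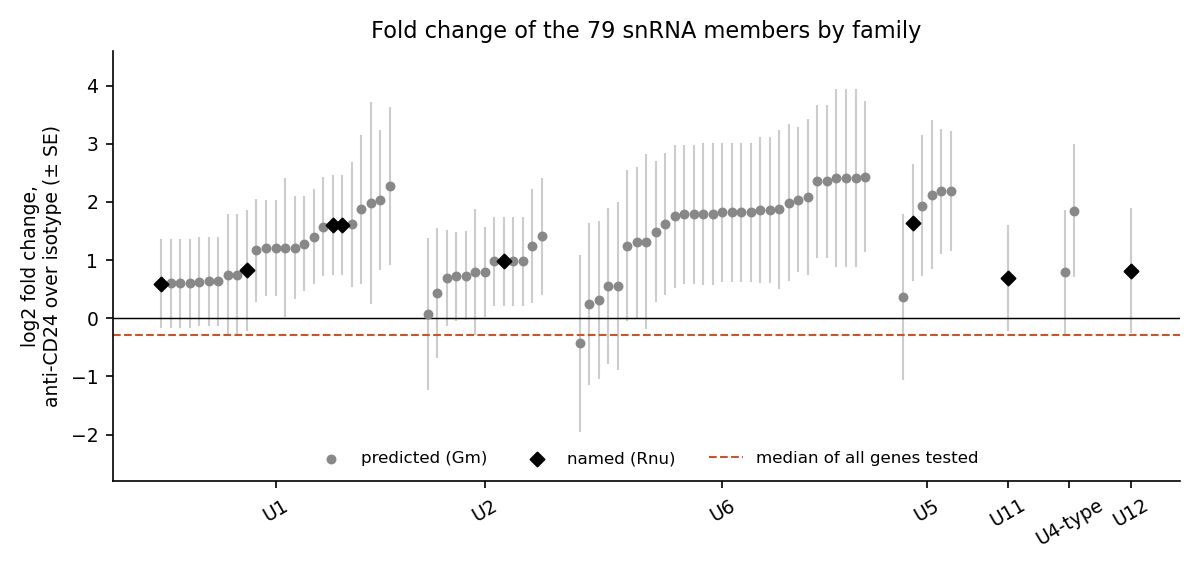
log2 fold change of the 79 members, anti-CD24 over isotype, with the standard error from edgeR, sorted within each family; diamonds are named genes and the dashed line is the median of all 1501 genes tested. Members run from -0.43 to 2.44, and no member passed the adjusted test.

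Among the named members the median log2 fold change was 0.90 (0.60 to 1.65), and in none of the 8 did the groups separate. Rnu5g had a log2 fold change of 1.65 (SE 1.00, edgeR adjusted p = 0.546), and Rnu1b1 had 1.61 (SE 0.86, edgeR adjusted p = 0.546). Rnu2-10 had 0.98 (SE 0.76, edgeR adjusted p = 0.602). Rnu1b2, Rnu1b6, Rnu12, Rnu11 and Rnu1a1 had 1.60, 0.82, 0.82, 0.70 and 0.60, with adjusted p from 0.546 to 0.762 in edgeR. In CPM, Rnu1a1 had a mean of 266 ± 34.2 with isotype and 411 ± 288 with anti-CD24 (SD, n = 3 each). Its anti-CD24 spread covered all isotype values. In DESeq2 its log2 fold change was -0.03. That of Rnu11 was -0.17 without anti-CD24 replicate 2.

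Run 3 differed from runs 1 and 2 for U1, U2 and U12 in CPM, which takes no TMM factor. That factor was 0.512 for anti-CD24 replicate 3 and 0.873 for isotype replicate 3. The CPM ratio of anti-CD24 to isotype within runs 1, 2 and 3 was 1.87, 2.27 and 0.426 for the highest U1 copy, Gm22634. For the highest U2 copy, Gm23971, it was 2.08, 4.22 and 0.544. Rnu11 had ratios of 0.528, 2.41 and 0.962. Rnu5g had 1.64, 4.21 and 2.16, and the U6 copy Gm24019 had 3.17, 1.80 and 5.29. The ratio of these U5 and U6 genes was thus above 1 in all 3 runs, and that of U1 and U2 in runs 1 and 2. Gm24019 passed the minimum sum through the anti-CD24 samples, so its direction is in part fixed by the rule and is given as a description. Its exact 95% Poisson intervals overlapped between the groups in every run. Those of Rnu5g overlapped in runs 1 and 3 and were apart in run 2. In run 3 they were 1.43 to 13.4 CPM with isotype and 5.18 to 21.5 CPM with anti-CD24.

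The members with an unadjusted p under 0.05 were both U5 genes. Gm25099 had 27.9, 12 and 3.93 CPM with isotype and 77.0, 110.0 and 12.6 with anti-CD24. Its log2 fold change was 2.19 (SE 1.04, edgeR unadjusted p = 0.0347, adjusted p = 0.546). Gm25313 had 18.6, 18.1 and 2.62 CPM and 45.9, 114 and 10.1. Its log2 fold change was 2.19 (SE 1.07, edgeR unadjusted p = 0.0414, adjusted p = 0.546). In both genes the groups overlapped, since anti-CD24 replicate 3 lay below isotype replicate 1. Over the 6 U5 members the median log2 fold change was 2.03, over the 31 U6 members 1.82, over the 25 U1 members 1.21 and over the 13 U2 members 0.80. No U6 member reached the minimum sum on isotype counts alone. The same held for some U5 and U1 members and for Gm22973 of U2. These medians are therefore in part fixed by the rule and do not rank the families by response.

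Every anti-CD24 CPM lay above every isotype CPM in 20 of 79 members, against 5.73% of all genes tested. All 20 were U6 genes, of 31 U6 members. Their counts summed to 4 to 7 with isotype and to at least 21 with anti-CD24, so all 20 passed the minimum sum of 10 through the anti-CD24 samples. The share of members is therefore in part fixed by the rule and is given as a description. In the other direction, 0 members lay entirely lower, against 6.53% of all genes. The 20 had 7 distinct sequences and 14 distinct sets of counts, and 12 had the Rnu6 sequence. The 5 with the most counts, Gm24019, Gm25256, Gm26243, Gm22969 and Gm25829, had sums of 52, 52, 52, 51 and 51. Gm25256 had 9.31, 12 and 2.62 CPM with isotype and 29.5, 21.7 and 13.9 with anti-CD24, with a log2 fold change of 1.82 (SE 1.19, edgeR adjusted p = 0.546). The same values held for Gm24019. The counting error was wide. The exact 95% Poisson interval of this copy was 1.46 to 43.5 CPM in isotype replicate 2 and 6.91 to 24.8 CPM in anti-CD24 replicate 3, so the nearest samples of the groups were not separated at this depth. As CPM of counts outside rRNA and ribozyme genes, 8 of the 79 members separated, against 4.06% of all genes. Without anti-CD24 replicate 3, 59 of the 79 separated, against 18.5% of all genes.

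Other RNAs of snRNA biology were sparse. Of 42 mRNAs for spliceosome proteins, 16 had a count, and their summed counts were 4, 1 and 33 with isotype and 15, 19 and 3 with anti-CD24. Only Snrpb and Eftud2 were tested, and 0 of 2 were called. Snrpb, a core Sm protein, had 1, 0 and 4 counts with isotype and 10, 13 and 2 with anti-CD24. Lsm4, a subunit of the Lsm ring that binds U6, had 8 counts, all in isotype replicate 3. Of 20 mRNAs for snRNA assembly and export factors, 11 had a count and 0 were tested. Smn1, of the complex that loads Sm rings, had 5 counts and Ncbp1, of the cap-binding complex, had 3, all in isotype replicate 3. The scaRNAs, which guide chemical modification of snRNAs, all had a count (9 of 9). Scarna6 had 2, 6 and 33 counts with isotype and 100, 15 and 7 with anti-CD24, and Scarna17 had 3, 0 and 2 and 9, 13 and 6. Of the 4 scaRNAs tested, 0 were called, and their median log2 fold change was 1.01. In every sample the mRNAs of the spliceosome and assembly lists had fewer counts in sum than the snRNA members. The members were chosen by their counts and may count 1 read on several copies, while the lists had no minimum. This order is therefore a description only.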

How the data were processed

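EV RNA of WEHI-231 cells was sequenced in 6 samples. Trimming (FASTX toolkit), alignment (tmap) and strand-aware counting with htseq-count were done by the authors (HTSeq 0.5.4p5 per the labels) in union mode on exons of Ensembl GRCm38. The deposited values are raw counts per gene. Reads were trimmed by base quality with a minimum length, tmap was set to output all best hits, and no minimum alignment quality was asked for in counting. The U5 and U6 sequences are not reported here. The 5 summary lines of each file were left out, and 419 genes without annotation had no biotype.

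The members and lists were chosen with earlier results of these data known. Biotypes, sequences and positions came from GENCODE M21 (GRCm38). Families were assigned with BLAST+ 2.17.0 (E-value 1e-05) against the named snRNAs. CPM used all counts on genes. Genes with at least 1 CPM in 3 or more samples entered the quasi-likelihood test of edgeR 4.0.16 (R 4.3.3, TMM, condition only, Benjamini-Hochberg over 1501 genes, threshold 0.05), and all 79 members passed this filter. The test was checked on simulated data with known changes. It missed most of the smaller changes, so a gene that was not called may still have changed. Replicate numbers shared a sequencing run, per the run names, so the samples were treated as paired in an alternative; deviations of same-numbered samples from their group means (log2 CPM with a pseudocount of 1) had correlations of -0.03, -0.02 and -0.11. The p-values measure the spread among biological replicates of 1 cell line. In edgeR that spread was in effect taken from all genes tested together, not from each member's own 3 replicates per condition.

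Genes named are every named member, the 10 predicted members with the most counts, 3 genes on each side of the minimum, members with an unadjusted p under 0.05, the 5 non-overlapping members with the most counts, the top member of each family and the 2 top genes of each list. Gm23240, Rnu6 and the substitution variants were chosen after their values were seen. Alternatives were DESeq2 1.42.0, a replicate block, no TMM, rRNA genes removed, other filters, repeated counts kept once, other denominators and minimums, and each sample left out.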

Additional observations from a re-analysis of the deposited data

How the results depend on the processing

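No snRNA member, spliceosome mRNA or scaRNA was called under any of the 13 alternatives, including leaving out each sample (0 to 0). No assembly factor mRNA was called either, but 0 of 20 passed the filter of the main test, so that outcome was fixed there. Under the replicate block, 0 members and 0 of all 1501 genes were called, and the lowest adjusted p of a member was 0.987 in edgeR. The lowest over all alternatives was 0.0748, without anti-CD24 replicate 1, where 47 of 1119 genes were called. Of 104 log2 fold changes of named members, all but 3 kept their direction. Rnu1a1 was at -0.026 in DESeq2, and Rnu11 at -0.012 with at least 10 counts in total. With each sample left out, Rnu11 ran from -0.17 (without anti-CD24 replicate 2) to 1.46. The median over all genes moved from -0.29 to -0.97 in DESeq2 and -0.08 with rRNA genes removed, and members lay at 0.80 and 1.84.

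Of counts outside rRNA, the member share was 5.36% with isotype and 7.37% with anti-CD24, a difference of 2.01 points. With 1 copy per sequence (chosen after seeing the data) the isotype share was 0.199%, and with 1 copy per family (likewise) the shares were 0.0631% and 0.115%. Leaving out each sample gave isotype shares of 0.448% to 0.514%, anti-CD24 shares of 0.656% to 1.26% and differences of 0.174 to 0.777 points. The named share of member counts was 16.8% with repeated counts kept once, and 15.2% to 15.8% with each sample left out. A minimum of 1 count gave 209 members, and 1 gene per sequence gave 48. Alternatives for groups that do not overlap were chosen after seeing the data. The count of 20 members became 8 outside rRNA (4.06% of all genes) and 24 on TMM-scaled libraries (7.79% of all genes). It was 7 of 48 with 1 member per sequence (5.73% of all genes), and 20 to 59 with each sample left out. The last was without anti-CD24 replicate 3, and over these leave-outs 6.2% to 18.5% of all genes separated. The causes were not tested. Depth of 166129 to 794185 counts leaves genes of a few counts, such as U6 copies, with wide errors.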
